A study of Rattus norvegicus with 6 samples.

Results

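Renal endothelial genes were followed here in the kidneys of 6 male rats as a group of 10 genes: the endothelial identity genes Vwf, Pecam1, Cdh5, Emcn and Plvap and the receptor genes Kdr, Flt1, Tek, Tie1 and Eng. Every probe set that the array annotation assigns to exactly 1 of these symbols was taken, which gave 12 of the 31042 probe sets tested and 9 of the 14217 genes measured. Cdh5, which encodes the junction protein VE-cadherin, matched no probe set and has no value. The genes were picked by name for what they do, with earlier results of these data known.

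The study compared 3 inbred Dahl salt-sensitive (S) rats with 3 rats of the congenic strain S.LEW(10)x12x2x3x5, which has the S background and, by the usual reading of its name, a chromosome 10 segment of Lewis (LEW) origin. All were males born on 1 day, weaned at 30 days, fed a diet with 0.3% salt and killed at 53 days, and each cage held a rat of each strain. Total kidney RNA of each rat was hybridised to its own Affymetrix array of the rat genome. The question addressed was which kidney transcripts differ between the strains, and p-values measure the spread between the 3 rats of a group.

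Endothelial cells line the blood vessels, and the kidney has several kinds, from the fenestrated capillaries of the glomerulus to the arterioles, the peritubular capillaries and the vasa recta. Their growth and survival depend on vascular endothelial growth factors, which bind the tyrosine kinase receptors encoded by Kdr and Flt1, and on angiopoietins, which bind the receptor encoded by Tek, with Tie1 as its partner. Eng encodes endoglin, a co-receptor for ligands of the transforming growth factor beta family. Vwf encodes von Willebrand factor, the clotting protein that endothelial cells store in Weibel-Palade bodies and that platelets also carry.

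The arrays were alike in scale, with median log2 intensities from 7.48 to 7.51. S rat 2 stood apart from the rest in the distal tubule gene Slc12a3, named after its values were seen, at 9.50 against 11.7 to 12.4 in the other rats. For beta-actin and Gapdh the 3′ control probe set read brighter than the 5′ one, by a gap that widens when RNA is broken or labelling is incomplete. The mean gap was 1.56, 2.10 and 1.70 in S rats 1 to 3 and 1.26, 1.01 and 1.08 in congenic rats 1 to 3 (log2; two-sided exact permutation test, p = 0.1, which no split of 3 and 3 can go below). The strains did not overlap in it, so changes are also given with this gap as a term in the model. With that term limma called 0 of 31042 probe sets (2292 at an unadjusted p under 0.05), so no call below held there. Single rats mattered as well: without S rat 3 or without congenic rat 2 limma called 0 probe sets (6968 and 5575 at an unadjusted p under 0.05), and of the calls below at brightest probe sets Igfbp3 alone held without congenic rat 3, and Igfbp3, Tgfb1 and Cidec alone without congenic rat 1. The calls of Igfbp7, Reln and Slc4a1 were also lost under quantile normalization and without S rat 2, and those of Igfbp7, Reln, Slc4a1, Kcnj8, C1qb and C1qa with the rat number as a block. The mean over the 8 measured kidney epithelial markers ran from 11.95 to 12.72 (log2) between arrays. None of them was called by limma (1 higher and 0 lower at an unadjusted p under 0.05). That mean hides the podocyte gene Nphs1, named after its values were seen. It read 8.9, 5.7 and 6.9 in S rats 1 to 3 and 8.5, 8.3 and 8.3 in congenic rats 1 to 3. Its log2 change of 1.19 ± 0.64 (SE) did not pass (adjusted p = 0.29) and was -1.63 with the 3′ minus 5′ gap in the model.

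Of the 12 probe sets, 1 fell in congenic rats, that of Vwf, 0 rose, and 11 did not pass an adjusted p of 0.05 (limma, Benjamini-Hochberg over all 31042 probe sets). Over the whole array 3.47% of probe sets were called higher and 2.53% lower. At an unadjusted p under 0.05, 3 member probe sets were higher (Eng, Kdr and 1 of Flt1) and 1 was lower. Such values were common: in the same limma fit 7895 of all 31042 probe sets, in either direction, had an unadjusted p under 0.05. With 1 probe set per gene they were 3890 of 14217, which is the share to set beside the unadjusted counts of the gene lists. An unmoderated test per probe set called none of the 12, and none of all 31042 (6166 at an unadjusted p under 0.05). The 9 genes, each taken by its brightest probe set, had a median log2 change of -0.02, against -0.03 over all 14217 genes. The median size of change, regardless of sign, was 0.14 in the 9 genes and 0.10 in all genes. In whole kidney, fewer endothelial cells and less of a transcript per endothelial cell cannot be told apart.

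**Figure D1:**
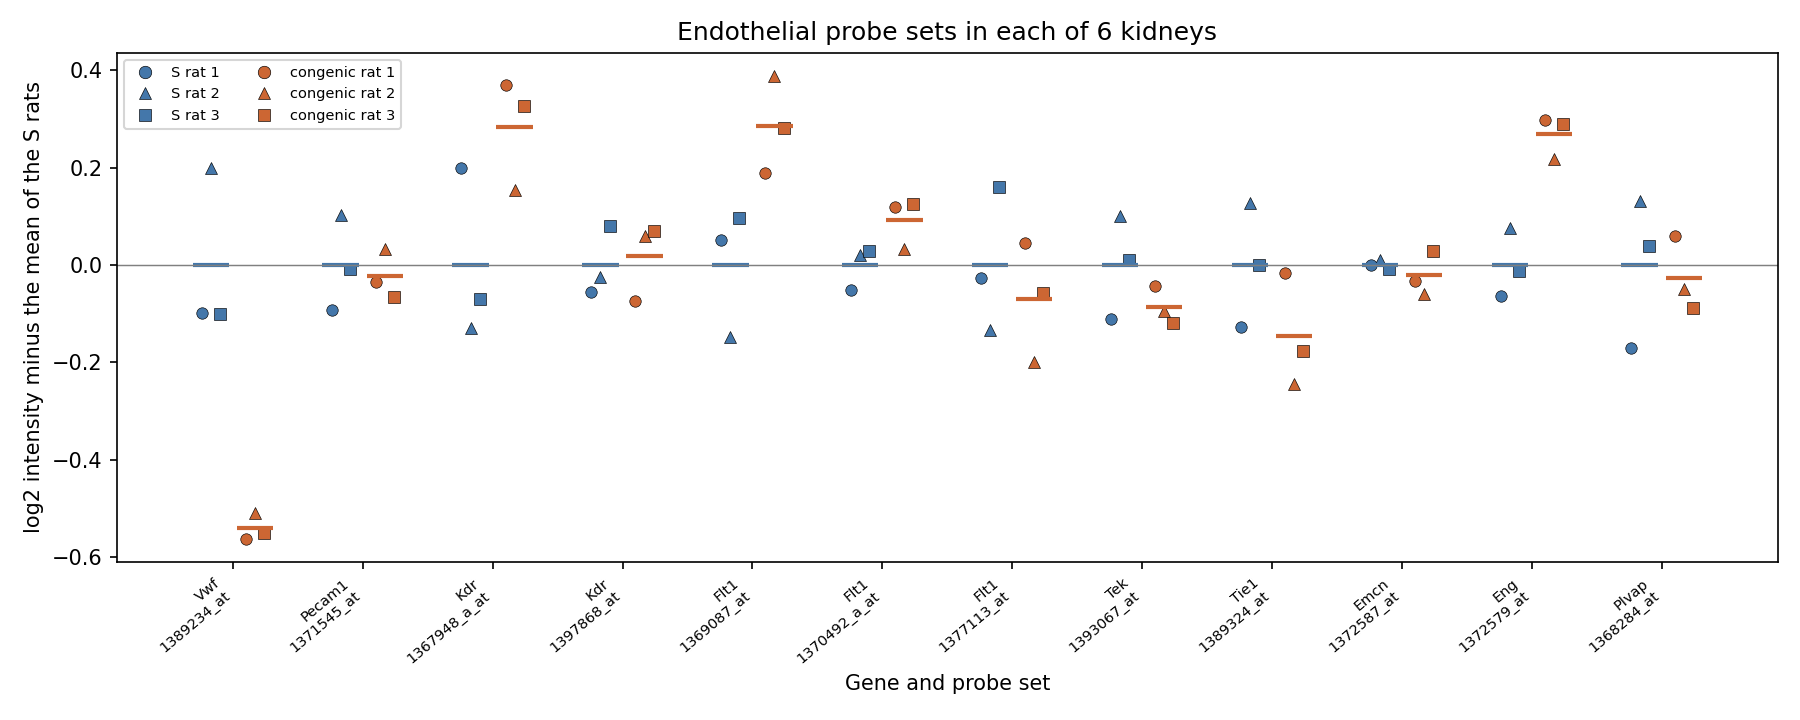
Log2 intensity of the 12 endothelial probe sets in each rat, as the difference from the mean of the 3 S rats (vertical axis), with horizontal bars at the group means. All 3 congenic rats lie below all S rats for Vwf and above them for Eng and 2 probe sets of Flt1, and the groups overlap at the other 8 probe sets.

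Vwf was the 1 member called. Its probe set (1389234_at, chromosome 4) read 10.38, 10.68 and 10.38 in S rats 1 to 3 and 9.92, 9.97 and 9.93 in congenic rats 1 to 3 (log2 intensity). Every congenic rat lay below every S rat, and the congenic rats lay close together. The means were 10.48 ± 0.17 in S and 9.94 ± 0.03 in congenic rats (SD, n = 3). The log2 change was -0.54 ± 0.09 (SE; limma, adjusted p = 0.0235), which is a level 1.45-fold lower in congenic rats, with a 95% interval of 1.26 to 1.68. Without S rat 2, whose value was the highest, it was -0.44 (adjusted p = 0.0221).

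The call on Vwf held in 10 of 16 other settings. Leaving out S rat 3 gave an adjusted p of 0.0831, and leaving out a congenic rat gave 0.0633 (rat 1), 0.0983 (rat 2) or 0.121 (rat 3), while the log2 change stayed between -0.59 and -0.44 with any 1 rat left out. With the 3′ minus 5′ gap in the model the change was -0.23 ± 0.15 (SE; adjusted p = 0.824). The gap itself separates the strains, so its part in the fall of Vwf and that of the strain cannot be told apart.

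Platelets carry Vwf too, and the levels of their markers are given for that reason. Of 7 measured platelet markers none was called in either direction by limma, and none had an unadjusted p under 0.05. Their mean level ran from 7.04 to 7.22 in S and from 7.04 to 7.13 in congenic rats (log2). Itga2b, an integrin subunit of platelets, stood at -0.16 (adjusted p = 0.277) and Treml1, a receptor of platelet granules, at 0.11 (adjusted p = 0.638). Adipocyte markers were lower in value in congenic rats for 7 of 8 genes, as was Vwf. Cidec, which coats lipid droplets, fell by 0.61 ± 0.09 (SE; adjusted p = 0.0202), where 2.67% of all genes were called lower at their brightest probe set. The other 7 were not called. Ucp1 stood at -1.14 (adjusted p = 0.0507; -1.18 with the 3′ minus 5′ gap in the model). Cd36 went the other way, at 0.66 (adjusted p = 0.0589; -0.0097 with that gap). Both were named after their values were seen, as were Fabp4 and Lpl, which also belong to the list of renal segment genes below. The list median was -0.40 (-0.13 with the gap), against -0.03 over all genes. Mean levels of the adipocyte markers ran from 8.88 to 9.42 in S and from 8.63 to 8.91 in congenic rats. Their part in the Vwf value was not tested.

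Angpt2, a Tek ligand that shares the Weibel-Palade bodies with von Willebrand factor, was looked at for that reason after its values were seen. It read 8.71, 9.28 and 8.86 in S rats 1 to 3 and 8.47, 8.43 and 8.52 in congenic rats 1 to 3 (log2 intensity). The groups did not overlap, but the log2 change of -0.48 ± 0.13 (SE) did not pass (adjusted p = 0.0653) and was 0.11 with the 3′ minus 5′ gap in the model. Selp, which encodes P-selectin, the adhesion molecule of the same bodies, stood at 0.14 (adjusted p = 0.375), at a dim probe set, and was also named after its values were seen.

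Eng came next among the members. Endoglin read 10.78, 10.92 and 10.83 in S rats 1 to 3 and 11.14, 11.06 and 11.13 in congenic rats 1 to 3 (log2 intensity, 1372579_at, chromosome 3). Each congenic rat was above each S rat, and the 1.20-fold higher level had a 95% interval of 1.08 to 1.34. The log2 change of 0.27 ± 0.07 (SE) lay just outside the threshold (adjusted p = 0.0528). It crossed it under quantile normalization (adjusted p = 0.0428), without dim probe sets (0.0427), with an intensity trend (0.0281) and with array weights (0.00849). Array weights called 3128 of all 31042 probe sets higher, against 1078 in the main fit. The change did not pass with median centring (0.0631), robust eBayes (0.0525), a block for the rat number (0.122) or no moderation (0.183). Taking 1 probe set per gene gave 0.0516, and leaving out a rat gave 0.0565 to 0.197. With the 3′ minus 5′ gap in the model the change was larger, at 0.44 ± 0.12 (SE; adjusted p = 0.494). Groups that do not overlap were common on these arrays: at 12.7% of all probe sets every congenic rat was above every S rat and at 18.4% below, and among the members at 3 and 1 of 12.

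Of the ligands that endoglin helps to bind, those of the transforming growth factor beta family, Tgfb1, Tgfb2 and Tgfb3 were measured and 2 rose. The listed ligand genes Gdf2 and Bmp10 and the receptor gene Tgfbr2 matched no probe set of 1 symbol and have no value. Over all genes at their brightest probe set 2.12% were called higher and 2.67% lower. Tgfb1 read 8.96, 8.82 and 8.94 in S rats 1 to 3 and 9.44, 9.50 and 9.63 in congenic rats 1 to 3, a log2 change of 0.62 ± 0.08 (SE; adjusted p = 0.0162). Tgfb3 rose by 0.63 ± 0.11 (SE; adjusted p = 0.0235), and Tgfb2 stood at 0.06 (adjusted p = 0.786). With the 3′ minus 5′ gap in the model Tgfb1 was at 0.43 and Tgfb3 at 0.54, and neither passed. The partner receptor genes Acvrl1 (-0.0038), Tgfbr1 (-0.08) and Bmpr2 (0.12) did not pass, and with that gap they were at 0.17, 0.15 and -0.03. These last 3 and Tgfb2 were named after their values were seen.

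Kdr, which encodes the main signalling receptor for VEGF-A, had a bright and a dim probe set. The bright one (1367948_a_at, chromosome 14) read 10.13, 9.80 and 9.86 in S rats 1 to 3 and 10.30, 10.09 and 10.26 in congenic rats 1 to 3. S rat 1 lay above congenic rat 2, so the groups overlapped, and the log2 change of 0.28 ± 0.10 (SE) did not pass (adjusted p = 0.124). It passed with array weights (adjusted p = 0.0181) and without S rat 1 (log2 change 0.38, adjusted p = 0.0209). Those settings called 3128 and 2697 of all 31042 probe sets higher, against 1078 in the main fit. The change was 0.09 ± 0.20 (SE) with the 3′ minus 5′ gap in the model. The dim probe set (1397868_at), whose mean level was at percentile 18.2 of all probe sets, read 5.42 to 5.58 in all 6 rats and stood at 0.02 (adjusted p = 0.91).

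Flt1, which encodes a VEGF receptor that also occurs as a soluble decoy form, had 3 probe sets, all of them dim and not in step. The brightest (1369087_at, chromosome 12, percentile 39.6) read 6.73, 6.53 and 6.78 in S rats 1 to 3 and 6.87, 7.07 and 6.96 in congenic rats 1 to 3. The groups did not overlap, yet the log2 change of 0.29 ± 0.09 (SE) did not pass (adjusted p = 0.0865), and with the 3′ minus 5′ gap in the model it was -0.04. The second (1377113_at, percentile 37.4) ran from 6.58 to 6.87 in S and from 6.51 to 6.76 in congenic rats, with a log2 change of -0.07 ± 0.10 (SE; adjusted p = 0.714). The third (1370492_a_at, percentile 24.0) ran from 5.76 to 5.84 in S and from 5.84 to 5.93 in congenic rats, with a log2 change of 0.09 ± 0.06 (SE; adjusted p = 0.421). No detection call was used here. Which Flt1 transcripts each probe set reads was not analysed here.

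Vegfa, the ligand that both receptors share, likewise differed between its probe sets, and was named after its values were seen. The bright one read 11.62, 11.47 and 11.62 in S rats 1 to 3 and 11.69, 11.57 and 11.60 in congenic rats 1 to 3 (log2 change 0.05, adjusted p = 0.737; -0.06 with the 3′ minus 5′ gap in the model). A dimmer one rose by 0.49 ± 0.08 (SE; adjusted p = 0.0235), from 8.31 ± 0.13 to 8.80 ± 0.08 (SD, n = 3), and stood at 0.21 with the 3′ minus 5′ gap in the model. Among the 11 measured ligands of the member receptors as a list, each taken by its brightest probe set, 2 rose, 0 fell and 9 did not pass, with a median of 0.07. Over all genes taken in this way 2.12% were called higher and 2.67% lower. Of 15 co-receptors and partners none was called (limma; 2 higher and 1 lower at an unadjusted p under 0.05), with a median of -0.0025. The nearest were the lymphatic VEGF receptor gene Flt4 (0.27, adjusted p = 0.0751) and the venous receptor gene Ephb4 (0.19, adjusted p = 0.0992).

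The stretches before the start sites of Kdr, Flt1 and Eng are shown because these receptor genes had the largest positive values among the members. Each is the 250 bases before the RefSeq gene start in the GRCr8 rat assembly, in the direction of the gene, with capitals on GGAA and its reverse complement TTCC, the core that ETS factors such as those encoded by Erg and Fli1 recognise.
Kdr, chr14:32571813-32572062, plus strand: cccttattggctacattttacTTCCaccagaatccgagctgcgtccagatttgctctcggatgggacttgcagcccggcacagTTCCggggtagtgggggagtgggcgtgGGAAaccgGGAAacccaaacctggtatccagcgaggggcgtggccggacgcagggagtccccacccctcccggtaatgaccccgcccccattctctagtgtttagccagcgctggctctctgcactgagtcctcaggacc
Flt1, chr12:12333180-12333429, plus strand: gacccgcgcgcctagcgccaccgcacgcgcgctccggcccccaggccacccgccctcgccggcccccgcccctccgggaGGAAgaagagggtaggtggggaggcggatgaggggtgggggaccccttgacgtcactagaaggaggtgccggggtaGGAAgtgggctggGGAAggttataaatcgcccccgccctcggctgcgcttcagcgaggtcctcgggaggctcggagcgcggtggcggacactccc
Eng, chr3:36332029-36332278, plus strand: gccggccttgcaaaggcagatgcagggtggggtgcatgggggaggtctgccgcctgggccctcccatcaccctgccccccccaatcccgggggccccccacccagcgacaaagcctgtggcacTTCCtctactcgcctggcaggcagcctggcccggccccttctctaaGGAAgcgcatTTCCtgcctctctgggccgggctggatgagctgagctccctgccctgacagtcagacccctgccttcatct

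The core occurred 4 times before Kdr and 3 times each before Flt1 and Eng. Before Tie1 and Plvap it occurred 4 times each and before Emcn 6 times. It is a common string: 93.2% of 33469 RefSeq promoters of the same length hold it on either strand, with a median of 3 matches. TATAAA, searched on both strands, was found before Flt1 and Plvap, once each, and in 12.9% of all promoters. These are matches of letters, given as a description of the sequences, and the table had an entry for 6 members.

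Tek and Tie1, the angiopoietin receptor and its partner, did not pass. Tek read 10.39, 10.60 and 10.51 in S rats 1 to 3 and 10.46, 10.41 and 10.38 in congenic rats 1 to 3 (log2 intensity, 1393067_at, chromosome 5). The groups overlapped, with a log2 change of -0.09 ± 0.07 (SE; adjusted p = 0.527; 95% interval -0.25 to 0.08). Tie1 read 9.66, 9.91 and 9.78 in S rats 1 to 3 and 9.77, 9.54 and 9.61 in congenic rats 1 to 3 (1389324_at, chromosome 5). They overlapped as well, with a log2 change of -0.14 ± 0.09 (SE; adjusted p = 0.363; 95% interval -0.35 to 0.06). Both values turned positive with the 3′ minus 5′ gap in the model, to 0.14 and 0.20. Angpt1, the activating Tek ligand, stood at 0.12 (adjusted p = 0.297) at a dim probe set, and Ptprb, the phosphatase that restrains Tek, at -0.26 (adjusted p = 0.123). With the 3′ minus 5′ gap in the model Ptprb turned to 0.11 and Angpt1 to -0.0045. Both were named after their values were seen.

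The 3 remaining measured identity genes had the smallest changes of the brightest probe sets. Emcn, which encodes the sialomucin endomucin of capillaries and veins, read 11.03, 11.04 and 11.02 in S rats 1 to 3 and 11.00, 10.97 and 11.06 in congenic rats 1 to 3 (1372587_at, chromosome 2). Its log2 change of -0.02 ± 0.06 (SE; adjusted p = 0.88) had a 95% interval of -0.16 to 0.12. Pecam1, which encodes the adhesion molecule CD31 of endothelium, platelets and leukocytes, read 9.04, 9.23 and 9.12 in S rats 1 to 3 and 9.10, 9.16 and 9.07 in congenic rats 1 to 3 (1371545_at). The groups overlapped, and the log2 change was -0.02 (adjusted p = 0.896; 95% interval -0.19 to 0.14), and 0.0093 under quantile normalization. Pecam1 is the member on chromosome 10, where the LEW segment lies, but the limits of that segment were not placed here, and sequence differences under the probes were not analysed here.

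Plvap encodes the protein of the diaphragms that span fenestrae and caveolae, and marks peritubular capillaries. It read 11.40, 11.70 and 11.61 in S rats 1 to 3 and 11.63, 11.52 and 11.48 in congenic rats 1 to 3 (1368284_at, chromosome 16). The S rats alone spanned more than the congenic rats, and the log2 change was -0.03 ± 0.09 (SE; adjusted p = 0.902; 95% interval -0.23 to 0.18). With the 3′ minus 5′ gap in the model Plvap was at 0.30 and Pecam1 at 0.15, and Emcn was at -0.0052; none passed.

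**Figure D2:**
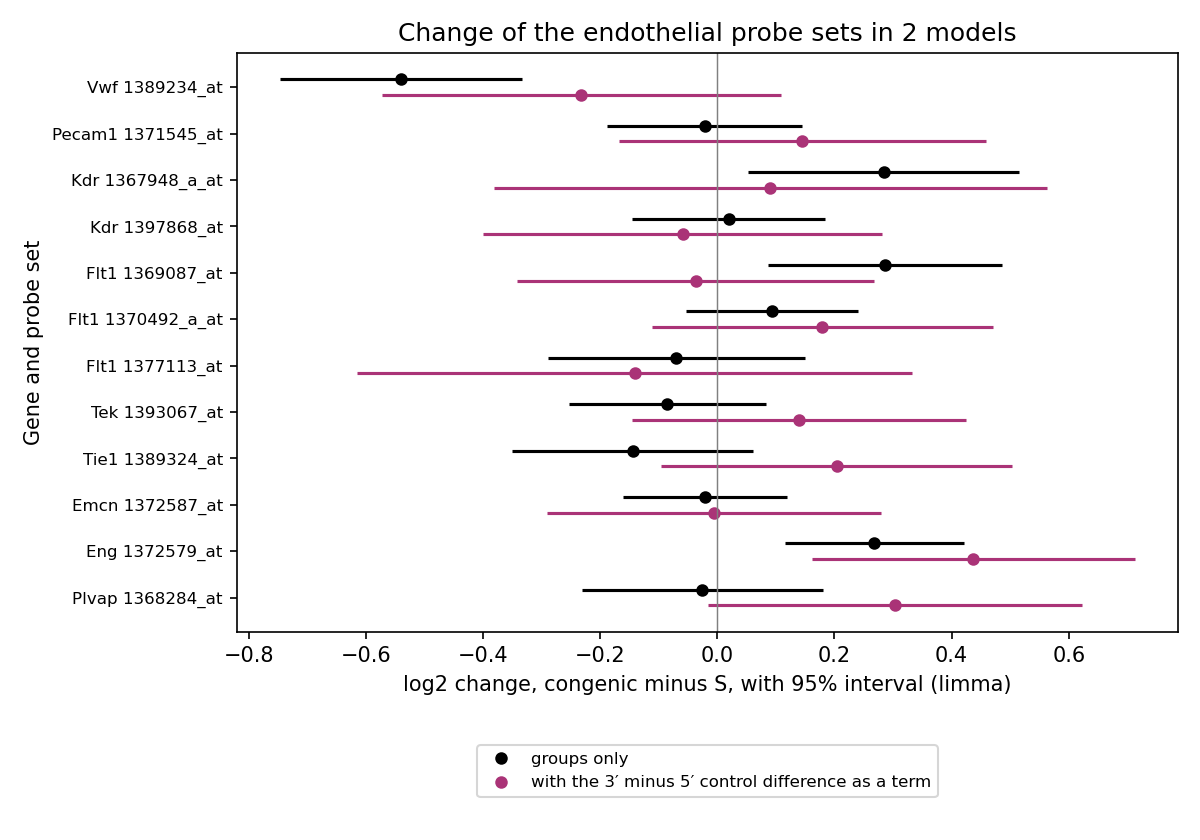
Log2 change from S to congenic rats (horizontal axis) of each endothelial probe set with its 95% interval from limma, for the model with the groups only (black) and with the 3′ minus 5′ control difference added (purple). Vwf moves from -0.54 to -0.23 and its interval then includes 0, that of Eng excludes 0 in both models, and the intervals widen when the term is added.

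Within the S strain the order of the rats differed between members. S rat 2 had the highest S value of 7 of the 9 genes (Vwf, Pecam1, Tek, Tie1, Emcn, Eng and Plvap) and the lowest of Kdr and Flt1, taking the brightest probe set of each. S rat 1 had the lowest value of 5. In the congenic strain the highest value was that of congenic rat 1 for 5 genes, of congenic rat 2 for 3 and of congenic rat 3 for 1. The mean level over the 9 genes was 9.95, 10.05 and 9.99 in S rats 1 to 3 and 10.02, 9.98 and 9.99 in congenic rats 1 to 3, so the strains overlapped. In the model with the groups only, the 95% interval of the log2 change lay within 0.5 in either direction for 7 of the 9 genes, all but Vwf and Kdr. With the 3′ minus 5′ gap in the model the intervals were wider. Those of Eng (to 0.713), Plvap (to 0.622), Kdr (to 0.562), Tie1 (to 0.5035) and Vwf (to -0.573) then passed 0.5 in size.

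Other endothelial genes were mostly not called. Of 28 measured identity genes outside the 10 members, 2 rose, 0 fell and 26 did not pass, with a median of -0.01. Over all genes at their brightest probe set 2.12% were called higher and 2.67% lower. Mmrn1, which encodes multimerin, a protein of platelets and endothelium, rose from 5.28 ± 0.18 to 5.93 ± 0.14 (SD, n = 3; log2 change 0.65 ± 0.11 SE; adjusted p = 0.0231), at a dim probe set. Igfbp7, a secreted binding protein of vessel walls, rose by 0.33 ± 0.07 (SE; adjusted p = 0.0407). Of 21 endothelial transcription factors none was called (limma; 2 higher and 2 lower at an unadjusted p under 0.05), with a median of -0.0046. Sox18 stood at 0.30 (adjusted p = 0.0829) and Erg, an ETS factor that maintains endothelial identity, at -0.22 (adjusted p = 0.116). With the 3′ minus 5′ gap in the model the median was 0.20 for the identity genes and 0.11 for the factors.

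Genes that mark segments of the renal vasculature, of which 16 were measured, gave 1 rise and no fall, with a median of 0.03. The shares over all genes were 2.12% called higher and 2.67% lower. The rise was that of Igfbp3, an IGF-binding protein that endothelium makes along with other renal cells. It read 8.96, 8.56 and 8.85 in S rats 1 to 3 and 10.36, 10.18 and 10.42 in congenic rats 1 to 3, a log2 change of 1.53 ± 0.11 (SE; adjusted p = 0.00511). Its second probe set rose by 1.11 (adjusted p = 0.0235), and with the 3′ minus 5′ gap in the model the first was at 1.18 (adjusted p = 0.449). Of 10 measured genes of endothelial activation and leukocyte adhesion none was called (limma; 2 higher and 0 lower at an unadjusted p under 0.05). Icam1, the adhesion molecule that leukocytes bind, stood at 0.26 (adjusted p = 0.0656) and Plat, the plasminogen activator of endothelium, at 0.32 (adjusted p = 0.0692), and the list median was 0.13.

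Probe sets of the same gene did not always move alike across these lists. Of 94 dimmer probe sets of the listed genes 10 were called higher and 0 lower. Over the whole array 3.47% of probe sets were called higher and 2.53% lower. The 10 include those of the endothelial genes Cav1 (0.75, against 0.05 at the brightest probe set), Cxcl12 (1.19, against 0.04) and Calcrl (0.36, against 0.09). The brightest Calcrl probe set was at -0.09 with the 3′ minus 5′ gap in the model. With that gap the 3 dimmer probe sets were at 0.47, 0.47 and 0.06. The others called were of Igfbp5 (1.23 and 1.19), Ctnnb1 (1.14), Ptprc (0.84), Epas1 (0.66), Igfbp3 and Vegfa. With the gap Igfbp5 was at 0.42 and 0.47, Ctnnb1 at 0.16, Ptprc at 0.72 and Epas1 at 0.08. These genes, apart from Igfbp3, were named after their values were seen.

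Cell types that share markers with blood endothelium or lie next to it had some markers called. Of all genes at their brightest probe set 2.12% were called higher and 2.67% lower. Of 6 lymphatic endothelial markers 2 rose, the chemokine gene Ccl21 (1.42 ± 0.22 SE; adjusted p = 0.0205) and Reln, which encodes reelin (0.35, adjusted p = 0.0451). Prox1, the transcription factor that sets lymphatic identity, was named after its values were seen and ran the other way, at -0.59 (adjusted p = 0.0518). With the 3′ minus 5′ gap in the model Ccl21 was at 0.50, Reln at 0.40 and Prox1 at -0.03. The list median was 0.31, with mean levels from 8.02 to 8.28 in S and from 8.40 to 8.58 in congenic rats. Of 12 smooth muscle and pericyte markers Kcnj8, a potassium channel of pericytes, rose by 0.40 (adjusted p = 0.0331) and 11 did not pass. With the 3′ minus 5′ gap in the model Kcnj8 was larger, at 0.62 (adjusted p = 0.458). That list's median was 0.33, and -0.16 with the 3′ minus 5′ gap in the model, with mean levels from 8.69 to 8.93 in S and from 8.96 to 9.06 in congenic rats.

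Blood cells were followed in the same way, beside the same shares over all genes (2.12% called higher and 2.67% lower). Of 10 mononuclear phagocyte markers the complement genes C1qb (0.46, adjusted p = 0.0235) and C1qa (0.42, adjusted p = 0.0373) rose and 8 did not pass. With the 3′ minus 5′ gap in the model C1qb was at 0.50 (adjusted p = 0.545) and C1qa at 0.68 (adjusted p = 0.458). The list median was 0.195, and 0.596 with that gap. Mean levels of the phagocyte markers ran from 8.59 to 8.95 in S and from 8.87 to 9.02 in congenic rats. Of 4 red cell markers Slc4a1, the anion exchanger of red cells and of acid-secreting tubule cells, fell by 0.28 (adjusted p = 0.0463). Its dimmer probe set stood at 0.31 (adjusted p = 0.0842). Slc4a1 is on chromosome 10, where the LEW segment lies, and sequence differences under its probes were not analysed here. The hemoglobin gene Hbb, named after its values were seen, stood at 0.12. Hbb had no stable direction: it ran from -0.43 to 0.51 with a rat left out and was at -1.38 with the 3′ minus 5′ gap in the model, where the dimmer Slc4a1 probe set was at -0.05. The mean levels of the red cell markers ran from 9.48 to 10.9 in S and from 9.71 to 10.4 in congenic rats. What part these cells have in the values of the endothelial genes was not tested.

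**Figure D3:**
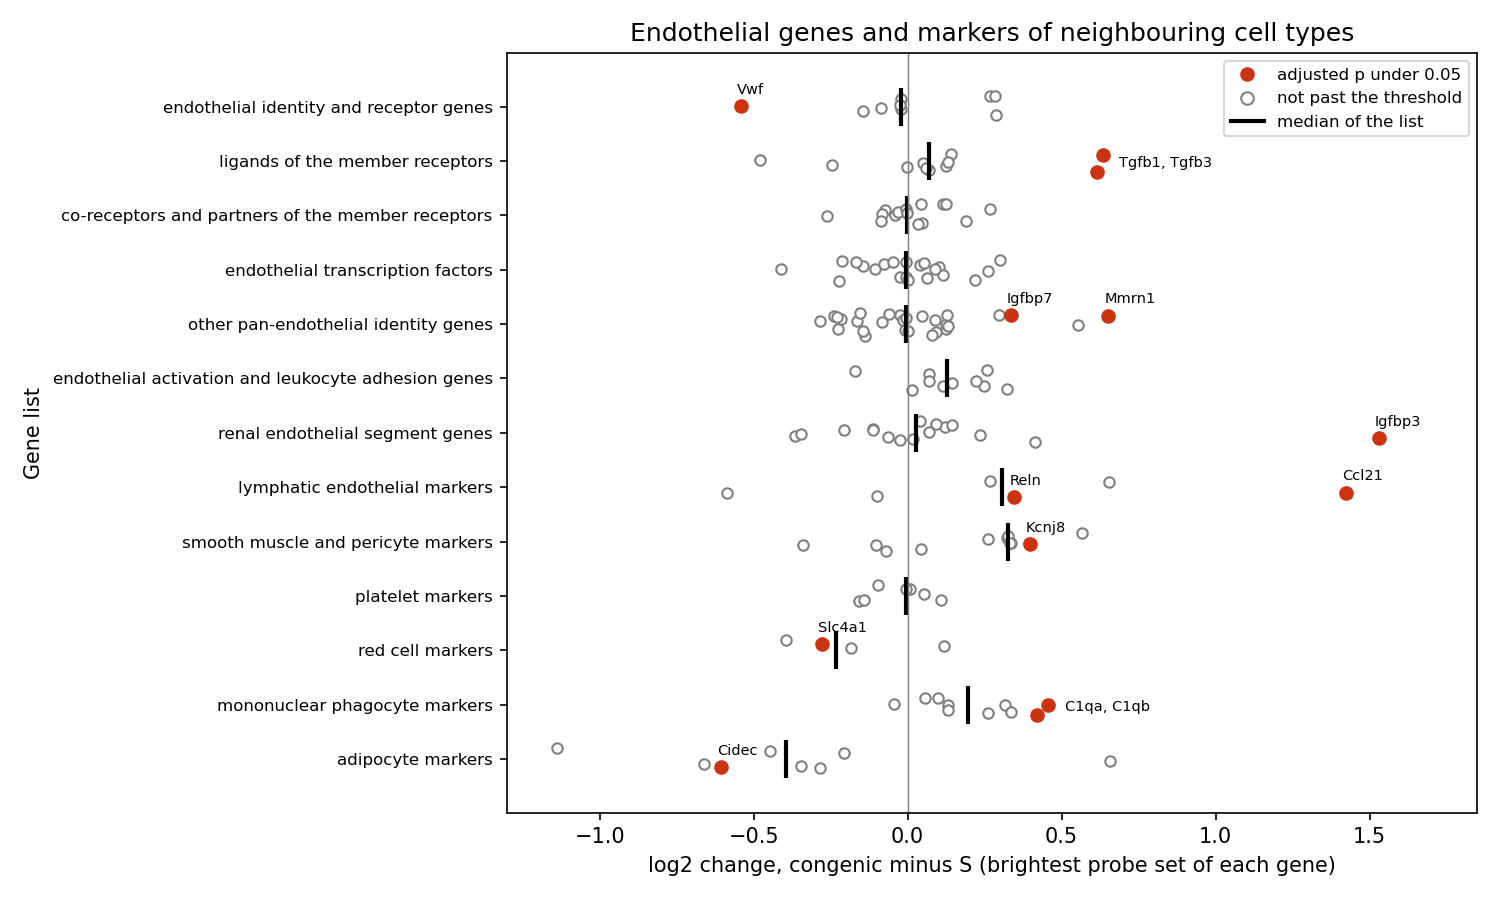
Log2 change from S to congenic rats (horizontal axis) of the brightest probe set of each gene, by gene list, with filled points for genes past an adjusted p of 0.05, open points for the others and black bars for list medians. Vwf is the filled point of the endothelial identity and receptor genes, at -0.54, and the other 8 genes of that list lie between -0.14 and 0.29.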

How the data were processed

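Kidney RNA of 6 rats, 1 array each, was compared between 2 strains. The deposited values are log2 probe set intensities, judged from their range; how they were summarised and normalized is not given in the sources used here. The members, gene lists and tests were chosen with earlier results of these data known. The table had 31099 rows, 57 of them controls that were not tested. The platform annotation gave 1 symbol to 20826 of the other 31042, several to 436, and did not list 9780. Symbols and chromosomes were updated by Entrez identifier to RefSeq's GRCr8 table, which matched 20758 of the 20826. The values name no genome build. Groups and rat numbers came from the titles, and no pair of arrays was identical.

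limma 3.58.1 in R 4.3.3 (lmFit, eBayes, two-sided, Benjamini-Hochberg over all tested probe sets, threshold 0.05) had 4 residual degrees of freedom, 8.49 with the prior. The brightest probe set stood for a gene in the lists. Intervals are at 95%. The fit was tested on simulated data with known changes. It recovered 53.7% of log2 changes of 0.5, 86.6% of those of 1 and 98.5% of those of 2. A change of 0.5 or less can therefore fail to be called. There is no read depth for arrays, and the number of rats limits the precision.

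Named were all members and, of each other list, its called genes (up to 5) or, with none called, the 2 with the smallest p; others are marked in the text. Alternatives were quantile normalization or median centring, dropping probe sets below percentile 40, eBayes with an intensity trend or robust, no moderation, weights per array, a block for the rat number, the 3′ minus 5′ control difference as a covariate, leaving out each rat, and other choices of probe set per gene. Their use on the other lists was added after the values were seen. The labels do not say which rats shared a cage, so no pairing by cage was used. Same-numbered rats did not deviate together (correlations of deviations from group means -0.01, -0.18 and -0.14), so the rat number was not taken as a pairing. Pairs with different numbers ran from -0.25 (S rat 3 with congenic rat 1) to 0.38 (S rat 3 with congenic rat 2). Figures were drawn with matplotlib 3.10.9.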

Additional observations from a re-analysis of the deposited data

How the results depend on the processing

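In 16 other settings, 157 of 185 values of the member probe sets kept their direction and their side of the threshold, 6 lost a call, 6 gained one and 16 changed sign. The count called lower, 1, was 0 with the unmoderated test and with the RNA quality covariate, and ranged from 0 to 1 with a rat left out. The count called higher, 0, was 1 under quantile normalization, without dim probe sets and with an intensity trend, 2 with array weights, and from 0 to 1 with a rat left out. Over all 31042 probe sets the main fit called 1078 higher, quantile normalization 1038 and the intensity trend 1491. Array weights called 3128 higher, the fit without S rat 1 called 2697, and the fit without dim probe sets 1003 of 18625. With the rat number as a replicate block Vwf kept its call (-0.54, adjusted p = 0.0397), and the counts of member calls did not change, but Igfbp7, Reln, Slc4a1, Kcnj8, C1qb and C1qa lost theirs. The median change of the 9 genes moved from -0.02 to 0.139 with the RNA quality covariate, more than 1 SD between rats (0.07). That covariate also turned Pecam1 to 0.145, Tek to 0.139, Tie1 to 0.204, Plvap to 0.303, the dim Kdr probe set to -0.0594 and the brightest Flt1 one to -0.0373. Quantile normalization turned Pecam1 to 0.0093, and array weights turned Emcn to 0.0024 and the dim Kdr probe set to -0.0084. With a rat left out Pecam1 ran from -0.0682 to 0.0291, Plvap from -0.111 to 0.0402, the dim Kdr probe set from -0.0089 to 0.0658 and Flt1 1377113_at from -0.137 to 0.0097. Of 319 values of the genes of other lists that the naming rule chose, 226 stayed, 80 lost a call, 10 gained one and 3 changed sign: Itga2b to 0.0363 with the covariate, and Treml1 to -0.0667 with array weights and -0.12 with the covariate. Of the genes named after their values were seen, Angpt2, Angpt1, Vegfa, Ptprb, Acvrl1, Tgfbr1 and Bmpr2 also changed sign with the covariate. So did Hbb, Slc12a3, Nphs1, Cd36, Fabp4 and the brightest Calcrl probe set. The cause of these shifts was not tested. The fits rest on 3 rats per group, and signal over background was not judged, since no detection call was used.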
